A study of Mus musculus with 78 samples.

Results

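The respiratory chain genes described here are the nuclear genes for the subunits, and for some assembly factors, of the 5 complexes of mitochondrial oxidative phosphorylation. They were taken by symbol from the array annotation: every gene beginning with Nduf, Uqcr, Cox4, Cox5, Cox6, Cox7, Cox8 or Atp5, and Sdha to Sdhd. This gave 87 of the 17097 genes that had a probe set of their own, and each was represented by its brightest probe set. In all, 84 of the 87 passed the filter on low signal and were tested among 11344 genes, while Cox4i2, Ndufa4l2 and Cox7b2 did not pass it. The symbol rule also takes in 1 transcribed pseudogene, Ndufs5-ps, which is among the 84.

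Complex I (NADH dehydrogenase, Nduf genes) and complex II (succinate dehydrogenase, Sdh genes) pass electrons to ubiquinone, complex III (Uqcr genes) passes them to cytochrome c, and complex IV (cytochrome c oxidase, Cox genes) passes them to oxygen. Complexes I, III and IV pump protons, and complex V (ATP synthase, Atp5 genes) uses the proton gradient to make ATP. A few catalytic subunits are encoded by mitochondrial DNA, and all other subunits are made from nuclear genes and imported. Endothelial cells obtain much of their ATP from glycolysis and are known to use their mitochondria largely for biosynthesis and signalling.

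Mice underwent partial ligation of the left common carotid artery (LCA), a model of disturbed, low blood flow, with the unligated right common carotid artery (RCA) as the control within each mouse. Endothelial-enriched RNA was flushed from both arteries 12 h, 24 h, 48 h or 2 weeks after surgery, and mice received atorvastatin, a statin, at 10 mg per kg of body weight per day or vehicle by mouth, daily, starting 2 days before surgery. There were 5 mice for each treatment and time, except 4 for atorvastatin at 48 h, giving 39 mice and 78 arrays. Every mouse had the surgery, so that the RCA is a contralateral artery and not one of an unoperated mouse. The labels name no strain, age or sex. Each mouse is a separate animal, so p-values measure the spread between mice. The 14 endothelial marker genes had mean log2 levels of 8.99 to 9.53 in the LCA and 9.02 to 9.67 in the RCA of vehicle-treated mice at 24 h and 48 h, well above the array medians of 4.59 to 4.77.

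Some arrays stood apart. The LCA minus RCA difference of neutrophil markers (median of 4 genes, log2) was 4.38 in vehicle mouse 4 at 24 h against -0.24 to 0.61 in the other 4 mice, and it was -0.22 in vehicle mouse 4 at 48 h against 4.79 to 5.66 in the others. In this list each of these mice lay nearer to the mice of the other time than to its own group, and counts that rest on them are given with and without both. Under vehicle, macrophage markers were also higher in the ligated artery at 48 h (8 of 12 genes, median difference 1.53; mean marker level 6.90 to 7.48 in the LCA and 4.12 to 6.38 in the RCA) and at 2 weeks (12 of 12, median 4.12), and smooth muscle markers at 2 weeks (6 of 6, median 2.40). In such bulk RNA, fewer cells of a type and less RNA per cell cannot be told apart, and the part of these cells in the differences below was not tested.

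Most respiratory chain genes gave a strong signal: 77 of the 87 lay above the array median on all 78 arrays. All values below are log2 array signals, and a difference is LCA minus RCA within a mouse, so that a value of 1 is a doubling. In a comparison of the arteries at a given time, a rise or fall means higher or lower in the LCA than in the RCA. It does not mean a change since an earlier time. A gene is called changed where the adjusted p from limma, with Benjamini-Hochberg adjustment over all 11344 tested genes, was under 0.05. At 12 h no respiratory chain gene was called in vehicle-treated mice, where 2.39% of all tested genes were called (1.31% higher and 1.08% lower), or in atorvastatin-treated mice, where 1.68% were (0.758% and 0.926%). At an unadjusted p under 0.05 there were 4 and 2 of the 84, against 1500 and 1300 of the 11344 genes, and the smallest limma adjusted p was 0.0919, for Uqcrfs1 in the vehicle group.

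At 24 h the ligated artery of vehicle-treated mice had lower levels of many of these genes. Of the 84, 17 were lower and 2 were higher in the LCA, that is 20.2% lower against 7.09% of all tested genes, and 2.38% higher against 7.19%. Calls in both directions made up 22.6% of the members and 14.3% of all tested genes. The median difference was -0.17 over the members and 0.03 over all genes, and 62 of the 84 were below 0. The falls lay in every complex: 6 of 26 accessory subunits of complex I, 1 of 7 assembly factors of complex I, 1 of 4 genes of complex II, 2 of 7 of complex III, 3 of 9 of complex IV and 4 of 17 of complex V. None of the 6 core subunits of complex I, which include its iron-sulfur and flavin subunits, was called, and their median difference was 0.08.

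**Figure D1:**
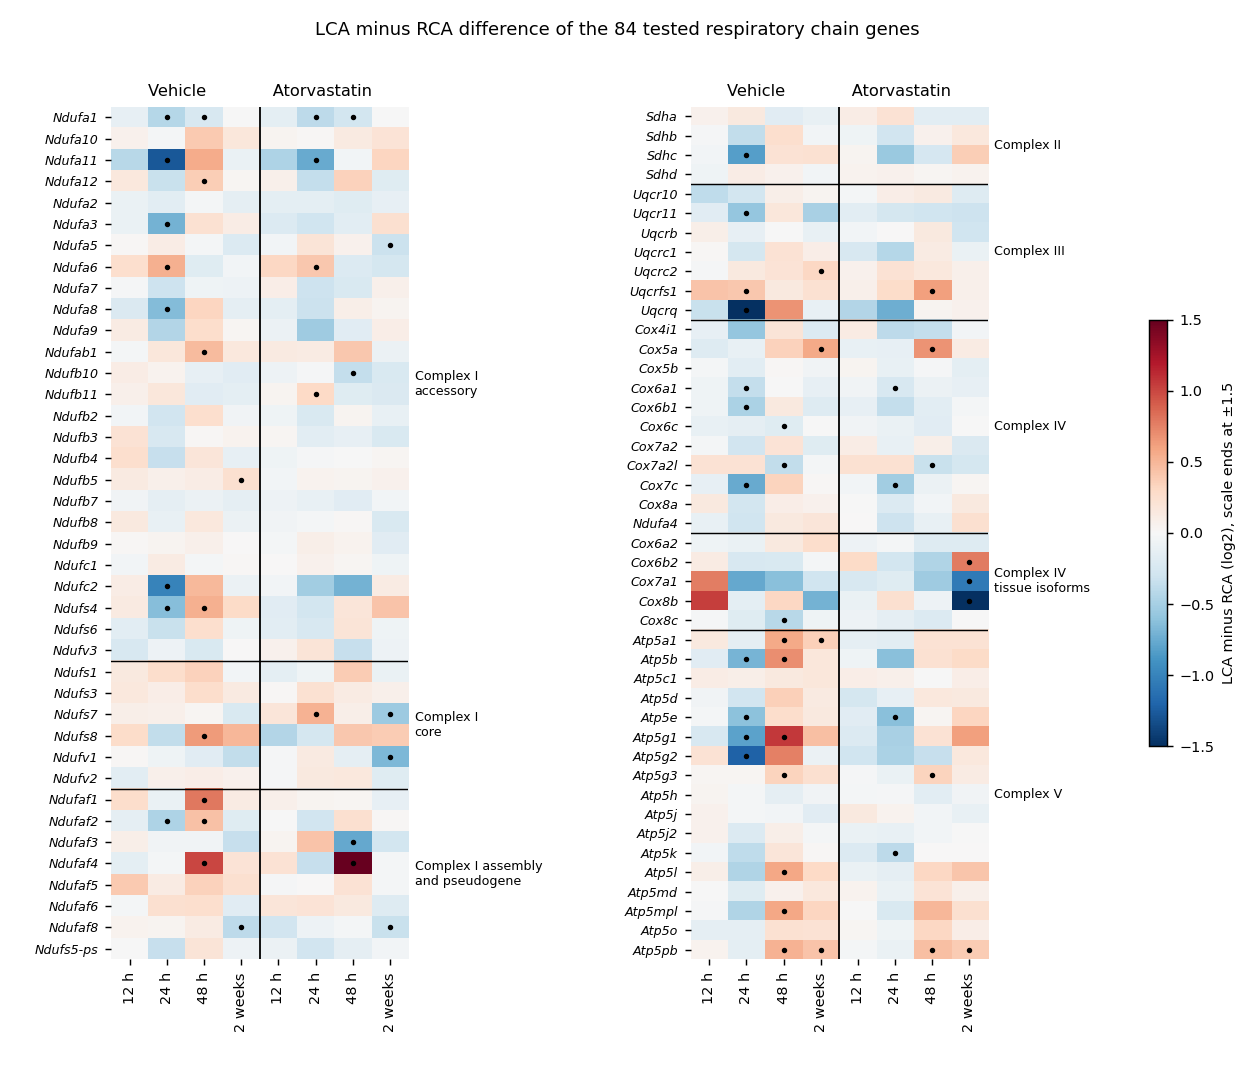
LCA minus RCA difference (log2, mean over 5 mice, 4 for atorvastatin at 48 h) of the 84 tested genes, grouped by complex, in the 8 groups of mice. Red is higher and blue lower in the ligated artery, the colour scale ends at ±1.5, and a dot marks a limma adjusted p under 0.05. The vehicle column at 24 h has dots on 17 blue and 2 red cells, and that at 48 h on 14 red and 4 blue cells.

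Uqcrq, a small subunit of complex III, was the furthest below its RCA level in the LCA at 24 h. Its LCA signals in vehicle mice 1 to 5 were 6.63, 5.02, 6.40, 6.75 and 6.82, and its RCA signals were 8.01, 8.14, 8.10, 7.49 and 7.46. All 5 LCA values lay below all 5 RCA values, the difference was -1.52 (SE 0.29, limma adjusted p = 0.000482), and the LCA was 2.86-fold lower. Another probe set of Uqcrq that passed the filter gave a difference of 0.42, so the probe sets of this gene disagree, and the mean of its probe sets was not called.

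Ndufa11, an accessory subunit in the membrane arm of complex I, had LCA signals of 6.94, 5.93, 6.73, 7.19 and 6.72 and RCA signals of 7.86, 8.34, 8.15, 7.41 and 8.12. Here too the arteries did not overlap, although mouse 4 came close. The difference was -1.27 (SE 0.24, limma adjusted p = 0.00044), a 2.42-fold fall. Atp5g2, one of the 3 genes for the rotating c subunit of ATP synthase, had LCA signals of 5.93, 5.65, 5.60, 6.55 and 5.21 against 7.18, 6.49, 7.5, 6.71 and 7.12 in the RCA. The LCA was lower in each mouse, but the ranges overlapped because mouse 4 differed little (difference -1.21, SE 0.31, limma adjusted p = 0.00754), and the call was lost without mouse 3 or 5. Atp5b, the catalytic beta subunit of ATP synthase, was lower in the LCA of all 5 mice, at 9.83, 9.28, 9.66, 10.03 and 9.55 against 10.43, 10.08, 10.67, 10.33 and 10.33, with no overlap (difference -0.70, SE 0.22, limma adjusted p = 0.0303). Its call was lost without mouse 1, 2, 3 or 5.

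The smallest limma adjusted p among the members at 24 h belonged to Cox7c, a small subunit of complex IV (difference -0.76, SE 0.14, adjusted p = 0.000303). Ndufa1, a short membrane subunit of complex I, fell by less but evenly, with LCA signals of 10.75, 10.45, 10.31, 10.55 and 10.54 and RCA signals of 10.98, 10.97, 10.95, 10.90 and 10.92. No LCA value reached the lowest RCA value, and the difference was -0.42 (SE 0.09, limma adjusted p = 0.0016). Also lower in the LCA than in the RCA were Ndufc2 at -1.0 (SE 0.25), Sdhc, a membrane anchor of complex II, at -0.82 (SE 0.20), Atp5g1 at -0.81 and Ndufa3 at -0.71 (SE 0.17). The remaining falls, of Ndufa8, Ndufs4, Atp5e, Uqcr11, Cox6b1, Ndufaf2 and Cox6a1, lay between -0.65 and -0.35. With the mean of all probe sets of a gene, the calls of Atp5g1, Ndufs4 and Cox6b1 were lost.

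The rises at 24 h were those of Ndufa6 and Uqcrfs1. Ndufa6, an accessory subunit of complex I, had LCA signals of 9.59, 9.68, 9.40, 9.12 and 9.84 and RCA signals of 8.81, 9.18, 9.13, 8.97 and 8.88, a rise in every mouse with slightly overlapping ranges (0.53, SE 0.13, limma adjusted p = 0.00428; lost without mouse 5). Uqcrfs1, the Rieske iron-sulfur subunit of complex III, rose by 0.41 (SE 0.14, limma adjusted p = 0.0413), with LCA signals of 7.64 to 8.06 and RCA signals of 7.29 to 7.69, and its call was lost without any one of the 5 mice. Sdha, the flavin subunit of complex II, Ndufs1, a core subunit of complex I, and Uqcrc1, a core subunit of complex III, were not called. Sdha differed by 0.14 (SE 0.08), Ndufs1 by 0.27 (SE 0.19) and Uqcrc1 by -0.26 (SE 0.16). Cox4i1, the general isoform of complex IV subunit 4, differed by -0.59 (SE 0.21, limma adjusted p = 0.056).

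The number of falls at 24 h depended on single mice. Without mouse 2 or mouse 3 it was 8, without mouse 5 it was 10 and without mouse 1 it was 11, while leaving out vehicle mouse 4 of 24 h and of 48 h together gave 18 falls and 2 rises, beside 12.7% of all genes called. The calls for Cox6a1, Cox7c, Ndufa1, Ndufa11, Ndufa3 and Uqcrq were kept without each mouse in turn. The number of rises was 0 without mouse 5 and 1 without any other mouse.

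A measure of RNA ends also differed between the arteries at 24 h, though not only then. The array's Gapdh control probe sets give a log2 ratio of signal at the 3′ end of the transcript over that at its 5′ end, which rises when RNA is shorter. Its LCA minus RCA difference in vehicle mice 1 to 5 at 24 h was 0.62, 1.46, 1.68, 0.41 and 0.53 (mean 0.94 ± 0.58, SD, n = 5). The medians over the respiratory chain genes in the same mice were -0.08, -0.31, -0.27, -0.05 and -0.18. In atorvastatin mice 6 to 10 at 24 h the gaps were -0.23, 0.74, 0.68, 0.59 and 0.56 and the medians -0.10, -0.01, -0.24, -0.12 and -0.10. Under vehicle mice 2 and 3 had the largest gaps and the lowest medians. Mouse 1 had a larger gap than mouse 5 and a median nearer 0. Under atorvastatin the largest gap went with the median nearest 0. The same ratio for beta-actin differed by 0.24 ± 0.11 (SD, n = 5) under vehicle at 24 h. It differed by 0.27 ± 0.51 at 12 h, 0.13 ± 0.20 at 48 h and 0.35 ± 0.26 at 2 weeks. At 12 h the Gapdh gap was 0.08 ± 0.31 under vehicle and 0.67 ± 0.91 under atorvastatin (SD, n = 5 each), and no member was called in either group. With the Gapdh gap as a covariate, an analysis chosen after seeing the data, 0 respiratory chain genes were called at 24 h and 3.4% of all genes were. Over all 39 mice the slope on the gap was negative for 52 of the 84 members. Its median was -0.06 over the members and 0.02 over all genes. The slope itself was called for 4 of the 84 members and for 132 of all 11344 genes. In that fit Uqcrq differed by -1.11 (limma adjusted p = 0.0619), Ndufa11 by -0.87 (0.0707), Cox7c by -0.49 (0.0654) and Ndufa1 by -0.34 (0.0758). Other differences shrank by more than 1.5 times, that of Atp5g2 to -0.35, Ndufc2 to -0.46, Sdhc to -0.35, Atp5g1 to -0.39, Atp5b, Ndufa3 and Ndufs4 to -0.44, -0.44 and -0.41, Atp5e to -0.23, Uqcr11 to -0.22 and Cox6b1 to -0.07. All 5 mice had a gap above 0, so that ligation and RNA ends cannot be told apart at 24 h.

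**Figure D2:**
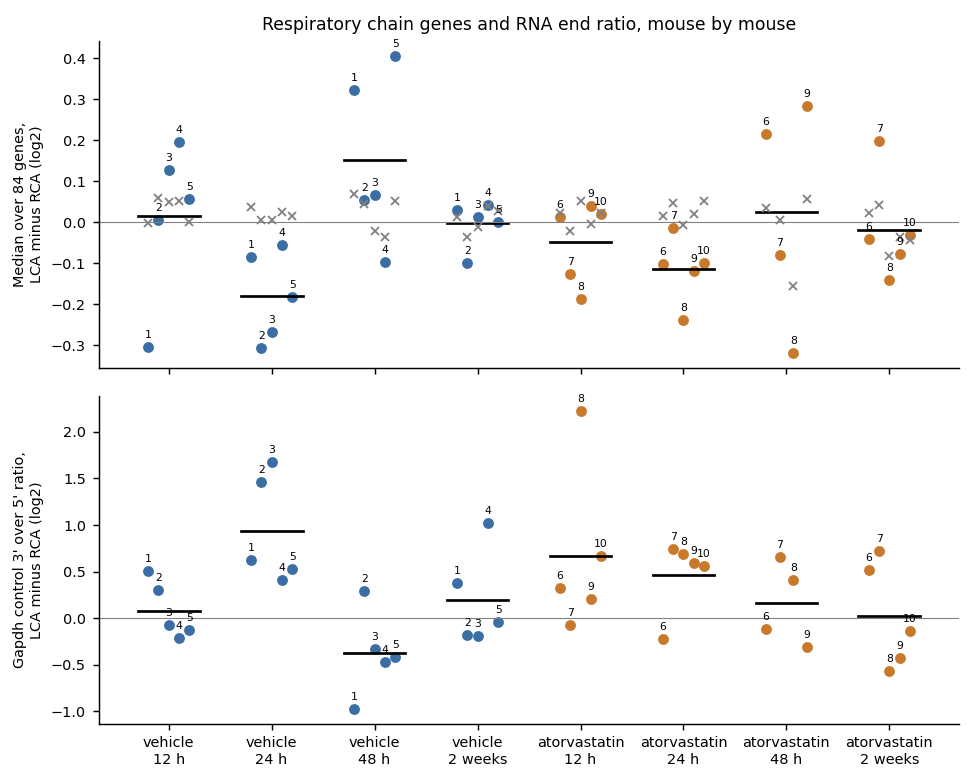
Top, the median LCA minus RCA difference (log2) over the 84 respiratory chain genes in each mouse (numbered points), the group mean (bar) and the median over all 11344 tested genes (crosses). Bottom, the LCA minus RCA difference of the Gapdh control ratio of 3′ over 5′ signal (log2) in the same mice. All 5 vehicle mice at 24 h have a median below 0 and a Gapdh gap above 0.

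By 48 h the picture in vehicle-treated mice had turned. Of the 84 genes, 14 were higher and 4 lower in the LCA, which is 16.7% higher against 20.8% of all tested genes and 4.76% lower against 15.4%. In both directions 21.4% of the members were called, fewer than the 36.2% of all genes. The median difference was 0.18 over the members and 0.01 over all genes, with 62 of the 84 above 0. Complex V held 7 of the 14 rises among its 17 genes and no fall (median 0.33), complex I assembly factors held 3 among 7 (median 0.35), accessory subunits of complex I held 3 and core subunits 1. No gene of complexes II and III was called.

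Atp5g1, another gene for the c subunit of ATP synthase, rose most. Its LCA signals in vehicle mice 1 to 5 were 8.02, 6.57, 7.74, 6.34 and 7.40, and its RCA signals were 6.30, 6.72, 6.54, 5.91 and 5.28. Mice 1, 3 and 5 rose by more than 1 log2 unit, mouse 4 rose less and mouse 2 was slightly lower in the LCA, so the ranges overlapped (difference 1.06, SE 0.25, limma adjusted p = 0.000973, 2.09-fold). The call of Atp5g1 was kept without each mouse in turn. It was lost with the mean of its 2 probe sets and in a fit on these mice alone. Atp5b stood at 10.60, 10.30, 10.93, 10.12 and 10.79 in the LCA and at 10.02, 9.91, 10.31, 10.06 and 8.94 in the RCA. It was higher in the LCA of each mouse, with overlapping ranges (0.70, SE 0.22, limma adjusted p = 0.0133), and the call was lost without mouse 5.

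Atp5pb, the b subunit of the stalk that holds the catalytic head in place, had LCA signals of 9.90, 9.31, 9.82, 9.01 and 9.88 and RCA signals of 9.20, 8.61, 9.18, 9.13 and 9.18. It was higher in 4 of 5 mice, mouse 4 being the exception (0.52, SE 0.12, limma adjusted p = 0.000596). Atp5a1, the alpha subunit of the catalytic head, was higher in all 5 mice by 0.60, 0.47, 0.72, 0.24 and 0.81 (mean 0.57, SE 0.14, limma adjusted p = 0.00129). Its call was kept without each mouse in turn and under each of the other settings tried. Atp5mpl at 0.58 (SE 0.18), Atp5l at 0.57 (SE 0.20) and Atp5g3 at 0.33 (SE 0.12), all membrane-sector or peripheral subunits, completed the rises of complex V.

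Among complex I assembly factors, which help to build the complex and are not part of it, Ndufaf4 had LCA signals of 9.55, 8.39, 8.99, 7.59 and 9.19 against 7.71, 7.77, 7.82, 7.83 and 7.59. In 4 mice the LCA lay above every RCA, and in mouse 4 it lay within the RCA range (difference 1.0, SE 0.30, limma adjusted p = 0.00953). A second probe set of Ndufaf4 gave 1.26, and the call was lost without mouse 1 or 5. Ndufaf1 had LCA signals of 5.56, 4.48, 5.18, 4.83 and 5.02 and RCA signals of 4.81, 3.97, 4.86, 4.47 and 2.98. All 5 mice rose, but the largest rise, of mouse 5, came with an RCA signal below all others (0.80, SE 0.23, limma adjusted p = 0.00579), and the call was lost without that mouse. Its signal was low, above the array median on 27 of the 78 arrays. Ndufaf2 rose by 0.44 (SE 0.15), and the complex I subunits Ndufs8, Ndufs4, Ndufab1 and Ndufa12 rose by 0.64, 0.54, 0.48 and 0.37. Of 10 other settings, 5 lost the call of Ndufs8, 7 that of Ndufs4, 2 that of Ndufab1 and 5 that of Ndufa12.

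The falls at 48 h were those of Cox8c, Cox7a2l, Ndufa1 and Cox6c. Cox8c, a testis-type isoform of a complex IV subunit, had LCA signals of 4.13, 4.28, 4.40, 4.57 and 4.25 and RCA signals of 4.59, 4.80, 4.59, 4.93 and 4.82. The arteries did not overlap (-0.42, SE 0.11, limma adjusted p = 0.00234), these signals being near the array medians. Cox7a2l, a factor that joins complexes III and IV into supercomplexes, had LCA signals of 10.59, 11.44, 11, 11.64 and 11.03 and RCA signals of 11.45, 11.38, 11.51, 11.71 and 11.50. It was lower in 4 of 5 mice (-0.37, SE 0.11, limma adjusted p = 0.00955), and the call was lost without mouse 1. Ndufa1 differed by -0.24 and Cox6c, a subunit of complex IV, by -0.18.

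These counts too depended on single mice. The 14 rises became 3 without mouse 5, 5 without mouse 1 and 9 without mouse 3, and 19 with vehicle mouse 4 of 24 h and of 48 h both left out (beside 3 falls and 40.8% of all genes called). The 4 falls became 2 without mouse 1, 2 or 3. In mouse 5 the control artery contributed: the median deviation of the respiratory chain genes from their means over all 78 arrays was -0.18 in its RCA, against 0.00 to 0.11 in the other 4, and 0.27 in its LCA. For example, Uqcrq in its RCA was at 5.65 against 7.45 to 7.63 in the others. Centring each array on its median moved the all-gene median from 0.01 to -0.13 and the members' calls from 14 and 4 to 7 rises and 11 falls. With the Gapdh gap as a covariate (mean gap -0.38 ± 0.45, SD, n = 5), 10 rises and 3 falls were called, beside 35.3% of all genes. A fit on the 10 arrays of these 5 mice alone called 1 rise, that of Atp5a1, and 0 falls.

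**Figure D3:**
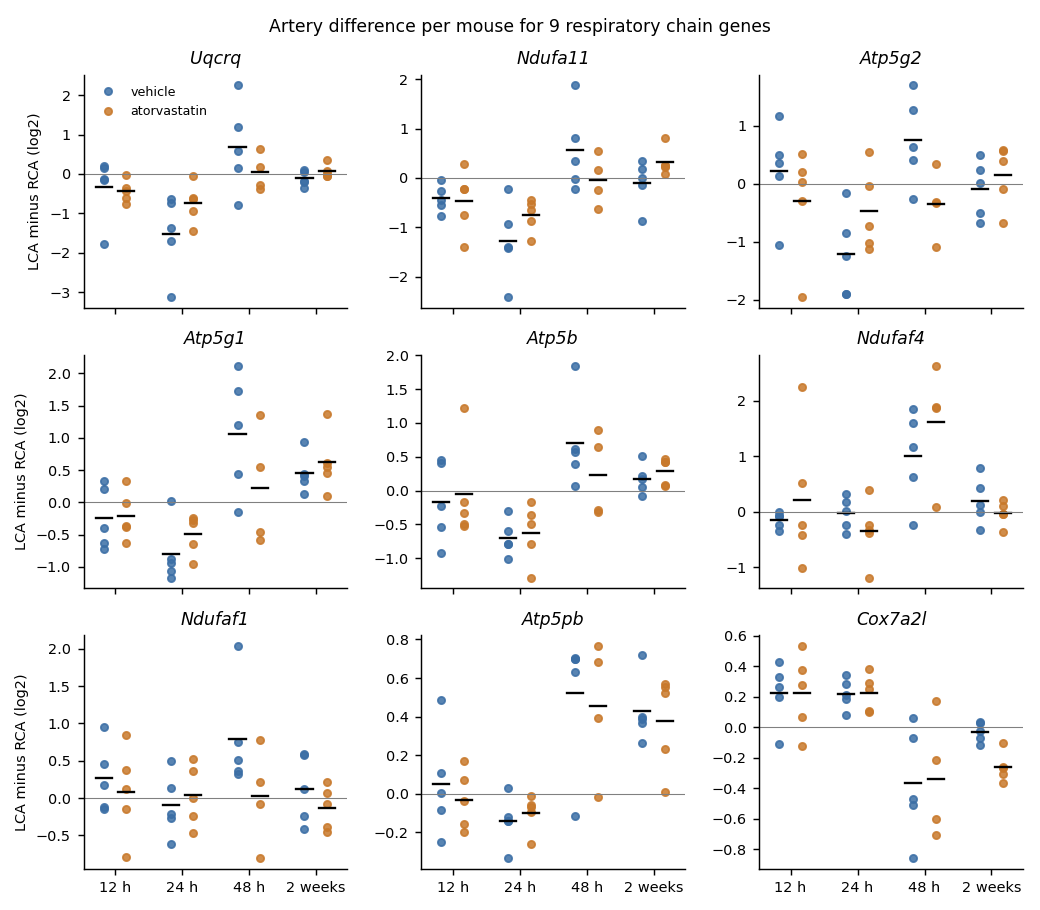
LCA minus RCA difference (log2) of 9 genes in each mouse (points, vehicle blue, atorvastatin orange) with group means (bars) at the 4 times. Uqcrq, Ndufa11, Atp5g2, Atp5g1 and Atp5b lie below 0 on average at 24 h and above 0 at 48 h in vehicle-treated mice, Cox7a2l does the opposite, and Ndufaf4 is highest at 48 h in both treatments.

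The turn between 24 h and 48 h was tested as a difference of differences. In vehicle-treated mice it was positive for 29 respiratory chain genes and negative for 3, which is 34.5% and 3.57% against 15% and 12.7% of all tested genes. In both directions 38.1% of the members were called, against 27.8% of all genes, and their median was 0.33 against 0.00. These contrasts use the same 24 h mice as the comparison above, so the large 24 h falls enter both. The positive genes included 10 of the 17 of complex V (median 0.64), 7 of 26 accessory subunits of complex I, 4 of 9 of complex IV, 2 of 7 of complex III and 2 of 4 of complex II. Uqcrq changed by 2.19 (SE 0.41, limma adjusted p = 0.000552), Atp5g2 by 1.96 (SE 0.44), Atp5g1 by 1.87 (SE 0.35) and Ndufa11 by 1.83 (SE 0.34). Ndufc2 followed at 1.48 (SE 0.36), Atp5b at 1.40 (SE 0.31) and Cox7c at 1.10 (SE 0.20). The negative changes were those of Ndufa6 (-0.71, SE 0.18), Cox7a2l (-0.59, SE 0.16) and Sdha (-0.31, SE 0.11).

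The 29 positive calls became 16 without mouse 5 of 48 h, 18 without mouse 1 of 48 h and 19 without mouse 2 of 24 h, and 35 with vehicle mouse 4 of both times left out (33.1% of all genes called). With the Gapdh gap as a covariate 5 remained called, Uqcrq, Atp5g1, Ndufa11, Cox7c and Atp5pb, beside 7.79% of all genes. No change from 12 h to 24 h was called for any of the 11344 genes, 16 members and 1189 of all genes being under an unadjusted p of 0.05. From 48 h to 2 weeks no member was called either, with 6 members and 2354 of all genes at an unadjusted p under 0.05 and 5.76% of all genes called, shared as 3.68% higher and 2.08% lower, and 1 member was called lower without vehicle mouse 4 of 48 h. Over the 4 times together, the F test called 22 members, 26.2% against 32.9% of all genes, and 14 without mouse 3 of 24 h.

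Probe sets that were not used for the test give a partial check within the same arrays. For 39 tested genes there were 53 other probe sets above the filter. In vehicle-treated mice 41 of the 53 were below 0 at 24 h (median -0.15, against -0.14 for the probe sets used) and 35 were above 0 at 48 h (0.12 against 0.14). The change from 24 h to 48 h was above 0 in 40 of 53 (0.42 against 0.30). Single genes varied: the Cox6a1 probe set used changed by 0.35 and the other by 1.12, those of Atp5d by 0.64 and 1.5, those of Ndufb7 by 0.05 and 1.24, and those of Uqcrq by 2.19 and -0.42.

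The promoters of the genes that moved together from 24 h to 48 h are shown because nuclear respiratory chain genes are known targets of the factor NRF1 and of ETS-family factors such as GABP. RefSeq promoter windows were available for 70 of the 87 members (75 windows, build GRCm38.p6). The other members, Uqcrq among them, were not searched. The 250 bases before the start were searched on both strands for GCGCANGC (NRF1), CCGGAAG (ETS) and AAGATGG (YY1). None of these contains another, although matches may overlap. Below are the 4 genes with the largest called rise among those whose window holds the NRF1 or ETS letters. They were thus picked for holding them. The windows of Atp5g1 (rise 1.87), Atp5b (1.40), Ndufs4 (1.18) and Cox7c (1.10) held neither, although these genes rose by more than Atp5l (1.02). Each is written 5′ to 3′ on the strand of the gene, with the matching letters in capitals, and ends 1 base before the start. Atp5g2 lies at chr15:102671048-102671297 (minus strand), Ndufa11 at chr17:56717512-56717761 (plus strand), Ndufc2 at chr7:97399753-97400002 (plus strand) and Atp5l at chr9:44920743-44920992 (minus strand).
Atp5g2: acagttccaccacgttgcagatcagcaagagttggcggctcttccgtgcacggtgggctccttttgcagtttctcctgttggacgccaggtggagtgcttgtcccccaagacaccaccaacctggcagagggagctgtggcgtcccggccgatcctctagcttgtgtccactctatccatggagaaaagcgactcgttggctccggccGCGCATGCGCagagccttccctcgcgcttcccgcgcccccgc
Ndufa11: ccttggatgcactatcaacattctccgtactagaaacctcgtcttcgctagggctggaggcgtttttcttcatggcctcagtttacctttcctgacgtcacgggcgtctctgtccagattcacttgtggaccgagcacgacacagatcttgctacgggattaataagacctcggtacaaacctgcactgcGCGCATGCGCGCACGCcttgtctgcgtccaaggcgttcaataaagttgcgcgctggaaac
Ndufc2: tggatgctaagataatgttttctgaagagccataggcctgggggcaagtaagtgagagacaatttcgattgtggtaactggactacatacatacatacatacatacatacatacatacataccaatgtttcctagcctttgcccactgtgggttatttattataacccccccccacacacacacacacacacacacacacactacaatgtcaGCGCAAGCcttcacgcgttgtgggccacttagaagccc
Atp5l: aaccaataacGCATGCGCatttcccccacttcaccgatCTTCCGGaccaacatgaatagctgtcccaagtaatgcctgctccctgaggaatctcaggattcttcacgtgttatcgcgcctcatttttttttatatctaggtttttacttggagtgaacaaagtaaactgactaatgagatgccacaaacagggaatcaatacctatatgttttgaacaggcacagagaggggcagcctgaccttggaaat

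The capitals hold 2 overlapping NRF1 matches in Atp5g2 (1 on each strand), 3 in Ndufa11, 1 in Ndufc2, and 1 NRF1 and 1 ETS match in Atp5l, where they lie at the far end of the window. The NRF1 letters were in 25.3% of the 75 member windows and in 8.3% of the 32851 windows of all 27025 genes, and the ETS letters in 16% and 6.91%. The YY1 letters were in 1.33% and 4.49%. The 50 bases after the start, which the windows also hold, were not searched for any of these letters. Among the members that rose from 24 h to 48 h (24 windows of 23 genes), the shares were 37.5% for NRF1, 25% for ETS and 0.0% for YY1, and among members not called (47 windows of 43 genes) 17%, 12.8% and 2.13%. These are counts of letters and not of bound sites, and they were not tested.

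The levels in each artery are described here beside the 24 h difference, with different mice at each time. In vehicle-treated mice the median change of the member means from 12 h to 24 h was 0.16 in the RCA, where 61 of 84 were higher, and -0.04 in the LCA. From 24 h to 48 h it was -0.07 in the RCA and 0.30 in the LCA, where 64 of 84 were higher. Atp5g2 averaged 5.71 ± 0.63 in the RCA at 12 h and 7.0 ± 0.40 at 24 h, while its LCA stood at 5.92 ± 0.74 and 5.79 ± 0.50 and reached 7.22 ± 0.46 only at 48 h (SD, n = 5 each). Atp5b averaged 9.65 ± 0.63 and 10.37 ± 0.21 in the RCA and 9.48 ± 0.58 and 9.67 ± 0.28 in the LCA at 12 h and 24 h. In both genes the mean rose from 12 h to 24 h in the control artery. In the ligated artery that of Atp5b rose less and that of Atp5g2 was slightly lower, a description with no test. Under atorvastatin the median change of the member means from 12 h to 24 h was 0.05 in the RCA, where 49 of 84 were higher. In the LCA it was -0.04, with 34 higher.

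Tested within the RCA, 17 members rose and 3 fell from 12 h to 24 h in vehicle-treated mice, 23.8% in all against 18.1% of all tested genes. By direction, 20.2% of the members were higher and 3.57% lower, against 9.99% and 8.13% of all tested genes. Atp5g2 rose by 1.29 (SE 0.30, limma adjusted p = 0.00443), Ndufc2 by 0.95 (SE 0.24), Sdhc by 0.83 (SE 0.22), Ndufa9 by 0.83 (SE 0.23) and Ndufs4 by 0.78 (SE 0.22). Ndufv2, Ndufab1 and Ndufv1, of the NADH-oxidising arm of complex I or its carrier protein, differed by -0.53, -0.49 and -0.29. The rises became 7 without mouse 3 of 12 h, 8 without mouse 4 of 12 h and 9 without mouse 3 of 24 h, and the falls became 6 without mouse 5 of 12 h or mouse 2 of 24 h. The Gapdh ratio in the RCA was 4.74 ± 0.31 at 12 h and 4.04 ± 0.24 at 24 h (SD, n = 5), and with it as a covariate no member was called, beside 0.45% of all genes.

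In the control artery of atorvastatin-treated mice 1 member was called from 12 h to 24 h, Ndufv1 at -0.48 (SE 0.11, limma adjusted p = 0.0179), against 0.996% of all genes, and it was lost without mouse 9 of 12 h or 10 of 24 h. In vehicle-treated mice 1 member was called from 48 h to 2 weeks, Ndufa6 at -0.49 (SE 0.12, limma adjusted p = 0.0453), against 0.652%. That call was lost without any one of the mice except mouse 3 of 48 h, and there were 2 falls without mouse 5 of 2 weeks. The F test over the 4 times called 19 members in the RCA of vehicle-treated mice (22.6% against 26.8%, and 11 without mouse 3 of 12 h) and 3 in atorvastatin-treated mice (3.57% against 5.88%), Cox5a, Cox8b and Ndufv1. These 3 became 0 without mouse 9 of 12 h and 1 without mouse 10 of 12 h, mouse 7, 8 or 9 of 48 h, or mouse 7 of 2 weeks. RNA was extracted and profiled in batches that the labels do not assign to samples, so time and batch cannot be told apart here.

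At 2 weeks the respiratory chain genes of vehicle-treated mice were close between the arteries. Of the 84, 5 were higher and 1 lower in the LCA, 7.14% against 27.8% of all tested genes, and the median was -0.02 against -0.01. Atp5pb had LCA signals of 9.18, 9.5, 9.48, 9.42 and 9.26 and RCA signals of 8.92, 9.12, 9.11, 9.02 and 8.53. The arteries did not overlap (0.43, SE 0.12, limma adjusted p = 0.00487), and the call was kept without each mouse and under the other settings. Atp5a1 was at 9.65, 9.63, 9.62, 9.5 and 9.76 in the LCA and at 9.10, 9.47, 9.55, 9.15 and 9.12 in the RCA, higher in all 5 mice with slightly overlapping ranges (0.35, SE 0.14, limma adjusted p = 0.0482; lost without mouse 1, 4 or 5).

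Cox5a, a matrix-side subunit of complex IV, was at 10.13, 9.81, 10.34, 10.52 and 10.17 in the LCA and 8.84, 9.46, 9.99, 9.78 and 10.08 in the RCA at 2 weeks. It was higher in each LCA than in its own RCA, by 1.3 in mouse 1 and by 0.09 in mouse 5, and the ranges overlapped (0.57, SE 0.20, limma adjusted p = 0.033; lost without mouse 1 or 4). Uqcrc2, a large core subunit of complex III, rose by 0.31 (limma adjusted p = 0.0494) and Ndufb5 by 0.25. The Uqcrc2 call was lost under 8 of 9 other settings and without mouse 1, 3, 4 or 5. That of Ndufb5 was lost under 3 of 9 and without mouse 1, 3 or 4. The assembly factor Ndufaf8 was lower, at 8.96, 9.15, 9.62, 9.63 and 9.44 against 9.11, 9.77, 9.91, 9.86 and 10.13, a fall in each mouse with overlapping ranges (-0.40, SE 0.13, limma adjusted p = 0.0186). Without mouse 1 or mouse 4 there was 1 rise and without mouse 3 or mouse 5 there were 3. The fall was lost without mouse 2 or 5, and there were 2 falls without mouse 1. Centring each array moved the all-gene median from -0.01 to -0.11 and the members' calls to 1 rise and 7 falls.

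Summarised per mouse, the median over the 17 genes of complex V was -0.22 ± 0.14 at 24 h (below 0 in 5 of 5 vehicle mice), 0.33 ± 0.34 at 48 h (above 0 in 4 of 5) and 0.15 ± 0.07 at 2 weeks (above 0 in 5 of 5; SD, n = 5 each). Complex IV, here 10 genes with Ndufa4 counted among them, stood at -0.34 ± 0.22 and complex III at -0.24 ± 0.14 at 24 h, below 0 in all 5 mice. These are descriptions of the members, with no test.

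In atorvastatin-treated mice the median at 24 h was also below 0 in all 5 mice. There were 6 falls and 3 rises among the 84, 10.7% against 13.1% of all tested genes (7.29% higher and 5.8% lower), with a median of -0.11 against 0.02. Ndufa1 had LCA signals of 10.58, 10.67, 10.36, 10.36 and 10.72 and RCA signals of 10.88, 10.91, 11.11, 10.74 and 11 in mice 6 to 10. No LCA value reached the lowest RCA value (-0.39, SE 0.09, limma adjusted p = 0.00346). Ndufa11 differed by -0.64, -0.87, -1.28, -0.52 and -0.45 in the 5 mice (mean -0.75, SE 0.24, limma adjusted p = 0.0355), and again the arteries did not overlap, but the call was lost without any one mouse. Atp5e at -0.62, Cox7c at -0.52, Atp5k at -0.40 and Cox6a1 at -0.24 were the other falls. Ndufs7, a core subunit of complex I, at 0.52, Ndufa6 at 0.40 and Ndufb11 at 0.30 were the rises. The 6 falls became 1 without mouse 8 or 10, 2 without mouse 9 and 3 without mouse 7, and no rise was called without mouse 7, 8 or 10. The Gapdh gap was 0.47 ± 0.40 (SD, n = 5), and with it as a covariate 1 member was called lower and 0 higher, beside 8.33% of all genes. Centring gave 11 falls and 1 rise, and a fit on these 5 mice alone 1 fall, that of Ndufa11, and 0 rises.

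At 48 h under atorvastatin, 5 members were higher and 4 lower, 10.7% against 31.8% of all genes, with a median of 0.02 against -0.01. Ndufaf4 rose most, with LCA signals of 9.30, 7.56, 9.53 and 9.53 and RCA signals of 7.44, 7.48, 7.65 and 6.90 in mice 6 to 9. Mouse 7 did not differ by more than 0.08, and the other 3 rose by 1.86 or more (1.61, SE 0.34, limma adjusted p = 0.000456, 3.06-fold). Mouse 7 also had the lowest neutrophil marker difference of the 4, at 1.5 against 3.85 to 6.32 in the others. Uqcrfs1 was at 8.28, 7.43, 7.56 and 8.19 against 7.28, 7.28, 7.14 and 7.33, with no overlap (0.61, SE 0.15, limma adjusted p = 0.00265). Cox5a (0.67, SE 0.23), Atp5pb (0.46, SE 0.13) and Atp5g3 (0.34, SE 0.13) were the other rises. Ndufaf3, an assembly factor that works with Ndufaf4, went the other way at -0.77 (SE 0.21, limma adjusted p = 0.00567). Its signals were near the array medians, with means of 4.41 in the LCA and 5.18 in the RCA. Ndufb10 at -0.36, Cox7a2l at -0.34 and Ndufa1 at -0.28 were also lower. The rises became 1 without mouse 6, 2 without mouse 9 and 9 without mouse 7 or mouse 8, and the falls became 1 without mouse 6 and 2 without mouse 8. Centring gave 4 rises and 8 falls, and a fit on these 4 mice alone called none.

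Between 24 h and 48 h under atorvastatin the artery difference rose for 4 members and fell for 5, 10.7% against 24.1% of all genes (11.1% higher and 13% lower). Ndufaf4 changed by 1.96 (SE 0.45, limma adjusted p = 0.0025), Atp5mpl by 0.73, Ndufa12 by 0.70 and Atp5pb by 0.55. Ndufaf3 changed by -1.20 (SE 0.28, limma adjusted p = 0.00309), Ndufa6 by -0.60, Cox7a2l by -0.57, Ndufb11 by -0.48 and Sdha by -0.38. The signal of Ndufaf3 was low, above the array median on 63 of the 78 arrays. The rises became 1 without mouse 6 or 9 of 48 h and 8 without mouse 7, and the falls became 1 without mouse 9 and 3 without mouse 6, all of 48 h. From 12 h to 24 h no gene was called, with 3 members and 756 of all genes at an unadjusted p under 0.05. From 48 h to 2 weeks Ndufaf4 changed by -1.64 (SE 0.45, limma adjusted p = 0.019) and Cox6b2, a testis-type isoform of complex IV that was above the array median on 47 of the 78 arrays, by 1.23 (SE 0.39, limma adjusted p = 0.0423), 2.38% of the members against 8.32% of all genes (4.28% higher and 4.05% lower). Both calls were lost without mouse 6 or 9 of 48 h, the rise also without mouse 8 of 48 h or mouse 7, 9 or 10 of 2 weeks. There were 3 falls without mouse 6 or 7 of 2 weeks and 2 without mouse 7 or 8 of 48 h. The F test over the 4 times called 14 members, 16.7% against 33.5%, and 9 without mouse 9 of 2 weeks.

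At 2 weeks under atorvastatin 2 members were higher and 6 lower, 9.52% against 29.9% of all genes, with a median of -0.02 against -0.03. Ndufv1 and Ndufs7, core subunits of complex I, differed by -0.67 (SE 0.16, limma adjusted p = 0.00136) and -0.55 (SE 0.16). Ndufaf8 differed by -0.34 and Ndufa5 by -0.32. The Ndufaf8 call was lost without mouse 6, 8 or 9 and under 2 of 9 other settings. Atp5pb was again higher, by 0.38 (SE 0.12, limma adjusted p = 0.0119), and Cox6b2 by 0.77 (SE 0.26, limma adjusted p = 0.0212). Unlike under vehicle, the Atp5pb call was lost without mouse 6, 7 or 10 and in a fit on these mice alone. The rises became 0 without mouse 7 and 1 without mouse 9 or 10. The other lower genes, Cox8b and Cox7a1, are described next.

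Complex IV has isoforms found mainly in muscle and brown fat, and their signals are given sample by sample. Cox8b, the heart, muscle and brown fat form of subunit 8, lay at a median of 4.56 over the 39 LCA arrays and 4.64 over the 39 RCA arrays, near the array medians, but reached 8.74 and 8.04. In the atorvastatin group at 2 weeks it was at 4.44, 4.47, 4.30, 4.82 and 4.85 in the LCA of mice 6 to 10 and at 4.40, 7.26, 8.04, 7.83 and 6.03 in the RCA. The RCA of mice 7 to 10 was above every LCA, and the arteries of mouse 6 differed by 0.04 (mean -2.14, SE 0.49, limma adjusted p = 0.000906). The LCA signals were near the array medians, so no fold is given. Adipoq, a fat cell gene that is not a member, stood at 2.44, 5.71, 8.85, 3.44 and 5.48 in the same RCA samples, and Ucp1, which defines brown fat, at 3.37, 7.02, 3.57, 3.70 and 3.31. Thus Adipoq was high in the RCA of mice 7, 8 and 10 and Ucp1 in that of mouse 7.

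Cox7a1, the muscle and brown fat form of subunit 7a, stood at 4.41, 3.88, 3.87, 4.34 and 3.84 in the LCA and at 4.51, 6.39, 4.09, 6.66 and 3.97 in the RCA of that group. Cox7a1 was above the array median on 11 of the 78 arrays. The difference of -1.06 (SE 0.33, limma adjusted p = 0.0141) came from mice 7 and 9 and was lost without either. In the RCA of mouse 9 the skeletal muscle actin Acta1 was at 7.12, against 2.86 to 2.93 in the other RCA samples of the group. The same coincidence appeared elsewhere. In vehicle mouse 3 at 12 h the LCA held Cox8b at 8.74, Cox7a1 at 7.18, Adipoq at 8.08 and Ucp1 at 6.99. In atorvastatin mouse 7 at 24 h both arteries were high in Cox8b (7.36 and 7.70), Adipoq (7.59 and 8.28) and Ucp1 (5.93 and 7.59). The part of fat or muscle in these values was not tested.

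**Figure D4:**
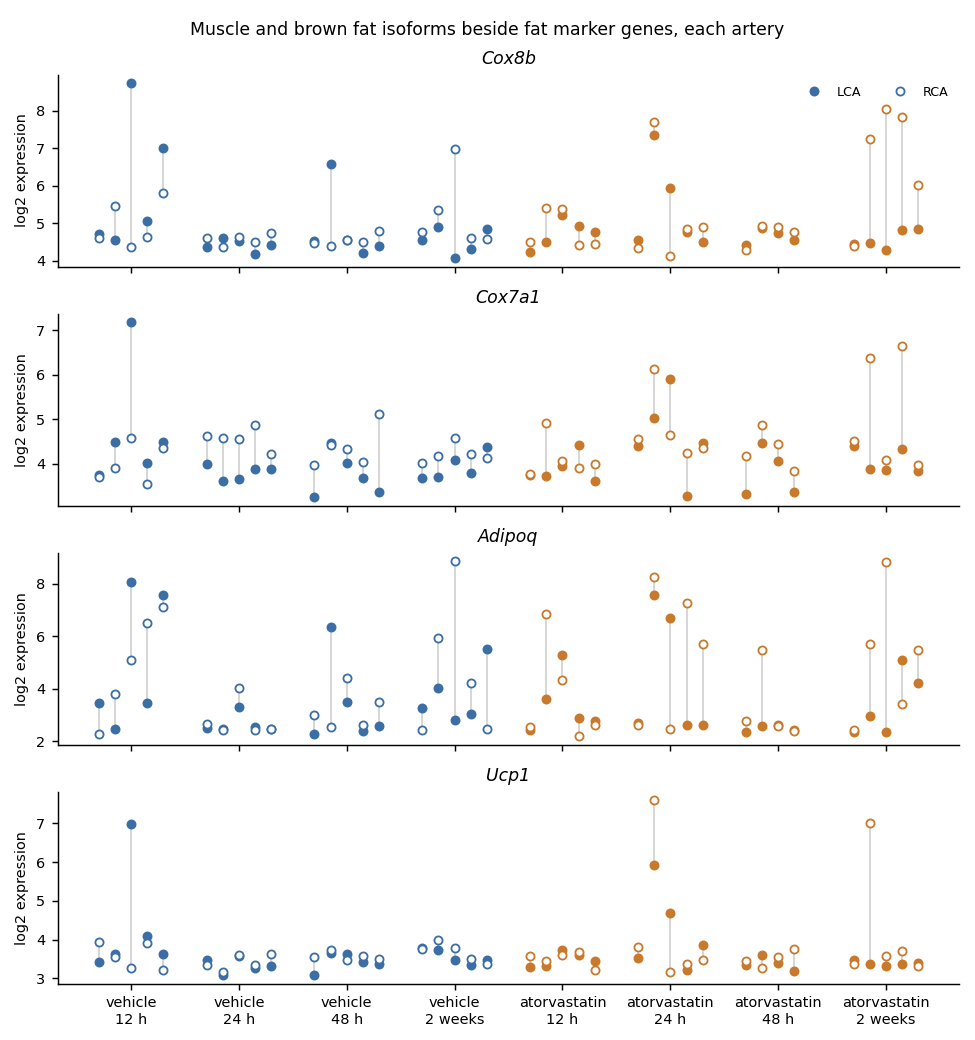
Log2 signal of Cox8b and Cox7a1, and of the fat marker genes Adipoq and Ucp1, in the LCA (filled) and RCA (open) of each mouse, joined by a line, in the 8 groups. The LCA of vehicle mouse 3 at 12 h, for example, is high in Cox8b (8.74) and in Adipoq (8.08).

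The other isoforms were low. Cox6a2, the heart and muscle form of subunit 6a, had group means of 4.32 to 4.92 and was called in no comparison of the arteries. Cox4i2, the form of subunit 4 known to respond to low oxygen, and Ndufa4l2, a hypoxia-induced relative of Ndufa4, were not tested because they did not pass the filter, with overall means of 4.38 and 3.90. The counterpart Cox4i1 was above the array median on all 78 arrays, with group means of 9.59 to 10.72, and its artery difference changed by 0.78 from 24 h to 48 h in vehicle-treated mice (SE 0.30, limma adjusted p = 0.0482).

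No respiratory chain gene was called between atorvastatin and vehicle. The test of whether treatment changed the artery difference called 0 of 84 members at each time and in the mean over the 4 times, and over all tested genes it called 0.00882% at 12 h, 0.0176% at 2 weeks and 0.0% otherwise. At an unadjusted p under 0.05 there were 2, 0, 6 and 3 members at 12 h, 24 h, 48 h and 2 weeks and 0 in the mean over the times, against 416, 296, 581, 495 and 422 of the 11344 genes. The 6 at 48 h were Ndufc2 at -1.19 (SE 0.38), Atp5g2 at -1.10 (SE 0.47), Atp5g1 at -0.85 (SE 0.37), Ndufaf1 at -0.77 (SE 0.34), Ndufaf3 at -0.72 (SE 0.28) and Uqcrfs1 at 0.46 (SE 0.21), atorvastatin minus vehicle, each with a limma adjusted p of 0.95. None of these passed the threshold, and a larger number of calls under vehicle at 24 h and 48 h is not shown to be a difference between treatments.

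Within each artery treatment also called no member at any time or in the mean over the times. In the LCA 6, 0, 1, 1 and 2 members were at an unadjusted p under 0.05 (12 h, 24 h, 48 h, 2 weeks and the mean), and in the RCA 8, 3, 12, 5 and 2. Of all genes 577, 309, 476, 313 and 690 were in the LCA and 1274, 452, 1211, 612 and 1227 in the RCA. The share of all genes called was 0.0% in the LCA in each of these and at most 0.0441% in the RCA. In the RCA at 12 h the smallest adjusted p was that of Ndufs8, an iron-sulfur subunit of complex I, which differed by 0.84 (SE 0.23, limma adjusted p = 0.177). In the RCA at 12 h 1 member was called when vehicle mouse 5 was left out.

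Other mitochondrial genes, taken from lists of neighbouring pathways, give the surroundings. At 48 h in vehicle-treated mice 40 of 72 mitochondrial ribosome genes were higher in the LCA and none lower (median 0.50), against 20.8% higher and 15.4% lower among all tested genes. Of genes for import, carriers and chaperones, 12 of 19 were higher and none lower (median 0.70), among them Phb (1.67, SE 0.31), a scaffold of the inner membrane, and the chaperone Hspa9 (1.28, SE 0.19). Of pyruvate dehydrogenase and citric acid cycle genes 8 of 15 were higher, with Idh3a at 1.0 (SE 0.21). Of fatty acid oxidation genes none was higher and 6 of 14 were lower, among them Cpt1a (-0.65, SE 0.18), which admits long-chain fatty acids to mitochondria. The respiratory chain genes, at 14 higher and 4 lower of 84, had a smaller share of rises than the first 3 of these lists, a difference that was not tested.

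The 48 h counts of the next lists stand beside the same 20.8% higher and 15.4% lower among all tested genes, and were not tested against them. Among electron carriers and dehydrogenases feeding ubiquinone, 4 of 12 were higher and 2 lower at 48 h. Cycs, cytochrome c itself, which links complexes III and IV, was higher by 1.55 (SE 0.28, limma adjusted p = 5.56e-05) and Cyc1, the cytochrome c1 subunit of complex III, which the symbol rule does not include, by 0.70 (SE 0.23). Of complex I assembly factors with other names 3 of 8 were higher, and of assembly factors of complexes II to V 3 of 25 were higher and 2 lower. Of regulators of mitochondrial biogenesis 2 of 12 were higher, Pprc1, a coactivator of the PGC-1 family, at 1.47 (SE 0.31) and Tfam, which maintains mitochondrial DNA, at 0.67 (SE 0.18). Of hypoxia-linked regulators 2 of 8 were higher and 2 lower at 48 h. At 24 h, where 7.19% of all genes were higher, 3 were, Pdk4 (2.36, SE 0.24), Pdk1 (0.84, SE 0.21) and Bnip3 (0.68, SE 0.19). Pdk4 and Pdk1 are kinases that shut off pyruvate dehydrogenase.

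At 24 h, where 7.19% of all genes were higher and 7.09% lower, 1 of 72 mitochondrial ribosome genes rose and 7 fell, and 1 of 19 genes for import, carriers and chaperones rose and 3 fell. Of 25 assembly factors of complexes II to V 1 fell, of 12 biogenesis regulators 1 rose and of 14 fatty acid oxidation genes 1 rose, beside the 3 of 8 hypoxia-linked regulators given above. None was called among pyruvate dehydrogenase and citric acid cycle genes, complex I assembly factors with other names or electron carriers.

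**Figure D5:**
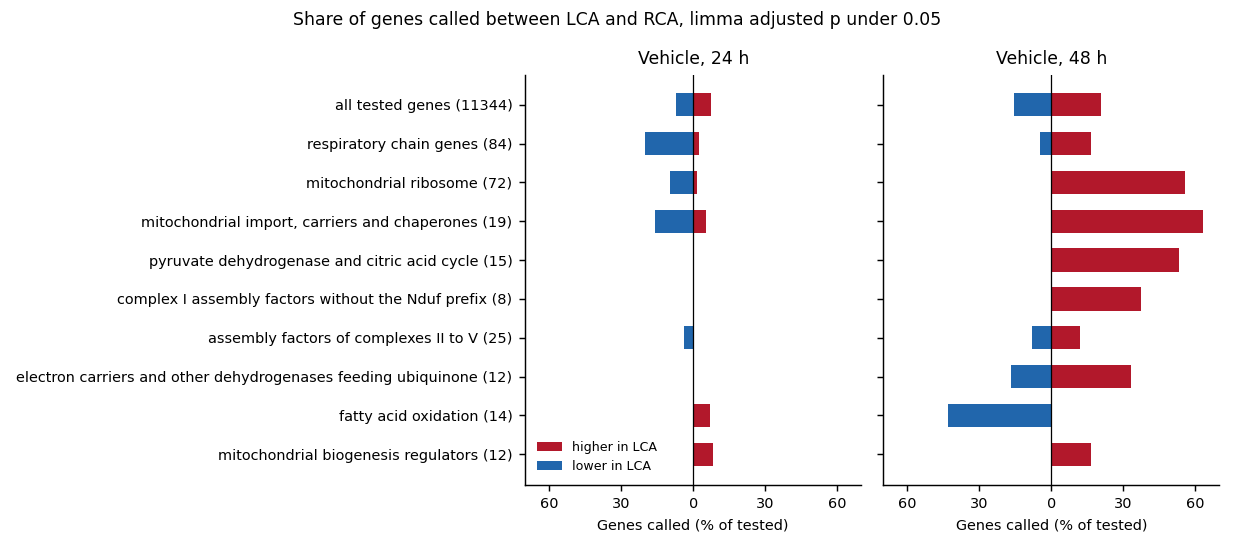
Share of tested genes (%) called higher (red, to the right) or lower (blue, to the left) in the LCA than in the RCA of vehicle-treated mice at 24 h and 48 h, limma adjusted p under 0.05, for all genes, the respiratory chain genes and 8 lists of related genes (number tested in parentheses). At 24 h the blue bar of the respiratory chain genes (20.2%) exceeds that of all genes (7.09%), and at 48 h its red bar (16.7%) is below that of all genes (20.8%).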

How the data were processed

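The values were log2 signals of Affymetrix arrays, 1 array for each artery, deposited by the authors as a normalized table. The submitters' processing notes name RMA, with no version, so background, normalization and summary over probes were already done. The deposited arrays still differed in their medians (4.59 to 4.77); centring each array is among the alternatives. Of 45118 probe sets, 28898 had 1 gene symbol, 551 several and 15588 none, and 81 were controls. A gene with several probe sets took the one of highest mean over all arrays, and it was tested if above the array median (percentile 50) on at least 4 arrays.

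The difference LCA minus RCA was formed within each mouse, as the labels give both arteries of a mouse the same number, and fitted with limma 3.58.1 and statmod 1.5.0 (R 4.3.3) over 8 groups of mice sharing 1 variance estimate. Changes over time and between treatments were contrasts of that fit, and levels within an artery were fitted separately. The Benjamini-Hochberg adjustment ran over all 11344 genes. The fit was checked on simulated data with independent normal noise for each gene. That setting is simpler than these data and does not hold their outlying mice.

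The members and lists were chosen with earlier results of these data known. Every member may be named, and values mouse by mouse are given for the 3 largest called rises and falls of each vehicle comparison and for Cox4i2, Ndufa4l2, Cox4i1, Cox6a2, Cox7a1, Cox8b, Sdha, Uqcrc1, Ndufs1 and Atp5b where they bear on a result. Up to 4 called genes of each pathway list are named. The Gapdh covariate and the omission of both vehicle mice numbered 4 were chosen after seeing the data. Extraction was done in batches that are not assigned to samples in the labels. No depth applies to arrays, and the number of mice limits the precision.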

Additional observations from a re-analysis of the deposited data

Results flagged for a closer look

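Among 118 groups of 4 or 5 mice checked for a mouse far from the rest, 16 had one, and chance alone gives about 1 in 20. All values are LCA minus RCA differences (log2). The median over the respiratory chain genes in 1 vehicle mouse at 2 weeks was -0.10, below the other 4. The muscle and brown fat isoforms gave several such mice. Cox8b stood at 2.21 in vehicle mouse 2 at 48 h, at -2.89 in vehicle mouse 3 at 2 weeks and at 1.82 in atorvastatin mouse 8 at 24 h. Adipoq was high in the same artery, at 6.36 against 2.52 in the other artery of the first mouse, at 8.86 against 2.79 in the second and at 6.69 against 2.47 in the third. Cox7a1 stood at 2.59 in vehicle mouse 3 at 12 h and at 0.24 in vehicle mouse 5 at 2 weeks. Cox6a2 stood at -0.33 in vehicle mouse 3 at 12 h and at 0.51 in atorvastatin mouse 7 at 24 h.

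Among the low genes that were not tested, Cox4i2 was at -0.48 and Ndufa4l2 at 0.33 in atorvastatin mouse 6 at 12 h. Among subunits found in all tissues, Atp5b was at 1.22 in atorvastatin mouse 9 at 12 h, Atp5g1 at 0.022 in vehicle mouse 4 at 24 h and Atp5pb at -0.12 in vehicle mouse 4 at 48 h. Ndufaf1 was at 2.04 in vehicle mouse 5 at 48 h, Ndufa1 at -0.75 in atorvastatin mouse 8 at 24 h and Sdha at 0.13 in atorvastatin mouse 6 at 24 h. Vehicle mouse 4 at 24 h and at 48 h are the mice whose neutrophil markers stood apart.

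The artery difference changed between times, by the contrast of both times in limma, for 32 respiratory chain genes from 24 h to 48 h under vehicle, for 9 under atorvastatin and for 2 from 48 h to 2 weeks under atorvastatin. Under vehicle the change from 24 h to 48 h was 2.19 for Uqcrq, 1.96 for Atp5g2, 1.87 for Atp5g1, 1.83 for Ndufa11, 1.40 for Atp5b, 0.89 for Ndufaf1, 0.78 for Cox4i1, 0.71 for Atp5a1 and 0.66 for Atp5pb. It was -0.71 for Ndufa6, -0.59 for Cox7a2l and -0.31 for Sdha. Under atorvastatin it was 1.96 for Ndufaf4, 0.55 for Atp5pb, -0.60 for Ndufa6, -0.57 for Cox7a2l and -0.38 for Sdha. From 48 h to 2 weeks Ndufaf4 changed by -1.64 under atorvastatin.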

How the results depend on the processing

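Counts are respiratory chain genes called higher or lower (limma, adjusted p under 0.05), LCA against RCA unless stated. No difference of a called gene changed direction under any alternative. Over the called genes and the alternatives, 708 values kept the call and 282 lost it. With the Gapdh covariate there were 0 higher and 0 lower for vehicle at 24 h, 0 and 1 for atorvastatin at 24 h, 5 and 0 for the vehicle change from 24 h to 48 h, 4 in the vehicle F test over time, 0 and 0 for the vehicle RCA from 12 h to 24 h, 0 lower for the vehicle RCA from 48 h to 2 weeks, and 1 each in the RCA F tests of vehicle and atorvastatin. With each array centred on its median there were 27 lower for vehicle at 24 h, 7 and 11 at 48 h, 1 and 7 at 2 weeks (with a mean of mouse medians of -0.11), 1 and 11 for atorvastatin at 24 h and 8 lower at 48 h.

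With only the mice of a comparison in the fit there were 1 and 0 for vehicle at 48 h, 1 higher at 2 weeks, 0 and 1 for atorvastatin at 24 h and 0 and 0 at 48 h. With quantile normalization applied again there were 3 and 4 for vehicle at 2 weeks, 0 higher for atorvastatin from 48 h to 2 weeks, 7 lower for the vehicle RCA from 12 h to 24 h and 0 from 48 h to 2 weeks. With the mean of all probe sets of a gene there were 3 and 4 for vehicle at 2 weeks, 1 higher for atorvastatin at 12 h and 1 at 24 h, 2 lower for atorvastatin from 48 h to 2 weeks, 0 lower for the vehicle RCA from 12 h to 24 h, 2 from 48 h to 2 weeks, and 0 for the atorvastatin RCA from 12 h to 24 h. With no filter there were 0 and 2 for atorvastatin from 48 h to 2 weeks and 0 lower for the vehicle RCA from 48 h to 2 weeks. Without both vehicle mice numbered 4 there was 1 lower for vehicle from 48 h to 2 weeks, and 0 for the vehicle RCA over the same time. Without the pairing of arteries within a mouse (no replicate block) there was 1 higher for vehicle at 24 h and there were 2 and 0 at 2 weeks, and no other count moved by over 1.5 times. The stricter filter, the intensity trend and the block on title numbers moved no count by over 1.5 times.

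Leaving out each mouse in turn, the counts higher and lower ranged from 0 to 1 and 8 to 18 for vehicle at 24 h, 3 to 19 and 2 to 3 at 48 h, 1 to 5 and 0 to 2 at 2 weeks, 0 to 3 and 1 to 4 for atorvastatin at 24 h, 1 to 9 and 1 to 5 at 48 h, and 0 to 2 higher at 2 weeks. For changes over time they ranged from 16 to 36 higher for vehicle from 24 h to 48 h, 0 to 1 lower from 48 h to 2 weeks, 1 to 8 and 1 to 7 for atorvastatin from 24 h to 48 h, and 0 to 1 and 0 to 3 from 48 h to 2 weeks, with 14 to 28 in the vehicle F test and 9 to 19 in that of atorvastatin. In the RCA they ranged from 7 to 21 and 2 to 6 for vehicle from 12 h to 24 h, 0 to 2 lower from 48 h to 2 weeks, 0 to 1 lower for atorvastatin from 12 h to 24 h, 0 to 1 between treatments at 12 h, 11 to 26 in the vehicle F test and 0 to 4 in that of atorvastatin. The causes were not tested. Signals near the array median limit what can be seen of Cox6a2, Cox7a1, Cox8b, Cox8c, Cox6b2, Ndufaf1, Ndufaf3 and the untested genes.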
